A study of Mus musculus with 8 samples.

Results

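The genes described here encode P2X receptors, and they were taken by symbol (P2rx2, P2rx3, P2rx4, P2rx5, P2rx6 and P2rx7) from a table of 15110 genes of the mouse geniculate ganglion. All 6 were in the table and all 6 passed the filter on low counts. That filter removed 0 genes of the table, so passing it does not set these 6 apart. The libraries were made from RNA of whole ganglia of adult C57Bl/6 mice, 4 of them wild type littermates (Egr4+/+) and 4 knockouts (Egr4-/-), with no treatment given in the labels. Egr4 encodes a zinc finger protein of the early growth response (EGR) family that binds DNA, and the series asks what its loss does to the neurons for sweet and umami taste. The labels do not limit the deletion to a cell type, and they give the material as every cell of the ganglion, so each value mixes neurons with glia, vessels and connective tissue. In such bulk samples, fewer cells of a type and less RNA per cell cannot be told apart.

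P2X receptors are cation channels that open when extracellular ATP binds them, and each channel is a trimer of like or unlike subunits. Taste cells release ATP as their transmitter, and P2X2 and P2X3 subunits on the fibres of the gustatory neurons receive it, so mice that lack both subunits lose most taste nerve responses. P2X4 and P2X7 are known from macrophages, microglia and other non-neuronal cells as well as neurons, P2X6 mostly joins other subunits instead of forming channels alone, and P2X5 is the least studied of the neuronal subunits.

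Total counts ran from 30849310 to 54255872 per library. Egr4 itself stood at 2.21 ± 1.16 CPM (reads scaled to a common library size by TMM) in the wild type and 0.912 ± 0.332 CPM in the knockout group (SD, n = 4 each), and the groups overlapped. Reads of the whole gene were counted, deleted part or not, so these values do not check the genotype labels. All 24 pan-neuronal genes were measured, with a mean log2 CPM of 6.98 to 8.11 per library. Such genes mark neurons in general, so they do not tell this ganglion from other nervous tissue. Several libraries stood apart in markers of other tissues. Knockout library 4 had a mean log2 CPM of skeletal muscle genes of 6.68, against -0.91 to 1.78 in the other 7 libraries, and of Purkinje cell genes of 6.17, where knockout library 3 had 5.08 and the other 6 had 1.58 to 2.92. Knockout library 2 had a mean log2 CPM of endothelial genes of 6.68, against 4.55 to 5.15 elsewhere.

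Promoter sequences are shown because the deleted protein is a member of the EGR family, whose binding motif is known. The RefSeq promoter table of build GRCm38.p6, with 300 bases around each transcription start, held 3 of the 6 genes. Each window is on the plus strand and is written 5′ to 3′, with any match to the EGR family motif GCGNGGGCG, searched on both strands, in capitals. The windows are chr5:122643677-122643976 for the first of both P2rx7 starts in the table, chr5:122707294-122707593 for P2rx4 and chr16:17561635-17561934 for P2rx6.
P2rx7: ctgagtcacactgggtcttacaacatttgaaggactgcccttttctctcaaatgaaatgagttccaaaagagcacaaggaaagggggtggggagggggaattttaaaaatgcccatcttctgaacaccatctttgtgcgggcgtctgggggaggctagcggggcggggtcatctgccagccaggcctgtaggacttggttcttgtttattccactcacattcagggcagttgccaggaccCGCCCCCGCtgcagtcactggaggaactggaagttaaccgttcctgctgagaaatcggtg
P2rx4: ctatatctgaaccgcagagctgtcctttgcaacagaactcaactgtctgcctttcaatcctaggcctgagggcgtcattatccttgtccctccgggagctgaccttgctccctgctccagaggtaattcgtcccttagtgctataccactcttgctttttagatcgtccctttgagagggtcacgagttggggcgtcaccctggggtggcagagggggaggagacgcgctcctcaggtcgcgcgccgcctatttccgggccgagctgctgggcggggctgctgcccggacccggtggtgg
P2rx6: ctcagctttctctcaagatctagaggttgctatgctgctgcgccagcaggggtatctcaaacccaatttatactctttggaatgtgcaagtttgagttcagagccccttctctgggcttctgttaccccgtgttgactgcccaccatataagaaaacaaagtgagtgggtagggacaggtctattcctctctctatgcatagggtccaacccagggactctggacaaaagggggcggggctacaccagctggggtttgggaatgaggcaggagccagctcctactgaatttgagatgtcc
The P2rx7 window held 1 match, on the minus strand and starting at base 241 of the window, and the P2rx4, P2rx6 and second P2rx7 windows held 0. Of all 32851 promoters in the table, 5.55% held the motif. A match describes these letters only and does not show binding.

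In wild type ganglia, P2rx2 was the most abundant of the 6 transcripts per length and P2rx5 the least. The authors' deposited log2 FPKM (scaled for gene length and library size) of P2rx2 was 6.12 ± 0.41 (SD, n = 4), which put it at the 91.4th percentile of the 15110 genes. P2rx4 followed at 4.84 ± 0.21 and P2rx3 at 4.37 ± 0.46, the 80.0th and 74.5th percentiles. P2rx6 stood at 2.32 ± 0.51 and P2rx7 at 2.16 ± 0.71, in the middle of all genes, and P2rx5 at 0.25 ± 0.83, the 19.7th percentile. P2rx2 lay above P2rx4 in every wild type library, but the ranges of P2rx4 (4.64 to 5.12) and P2rx3 (3.84 to 4.95) overlapped, as did those of P2rx6 (1.93 to 3.07) and P2rx7 (1.42 to 2.89). Within libraries, P2rx4 was above P2rx3 in all 4, by 0.47 log2 units between the means, while P2rx6 was above P2rx7 in libraries 1 and 4 and below it in libraries 2 and 3, so the order of P2rx6 and P2rx7 was not beyond their spread. Both P2rx4 and P2rx3 lay above P2rx6 and P2rx7 in all 4 libraries, and P2rx5 (-0.55 to 1.33) lay below P2rx7.

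The order of the means was the same in knockout ganglia. P2rx2 stood at a log2 FPKM of 5.45 ± 0.29, P2rx4 at 4.96 ± 0.15, P2rx3 at 3.82 ± 0.29, P2rx6 at 2.66 ± 0.76, P2rx7 at 1.77 ± 0.43 and P2rx5 at 0.08 ± 1.56 (SD, n = 4 each). The gap between P2rx2 and P2rx4 was 1.28 log2 units in wild type and 0.49 in knockout ganglia. The ranges of P2rx4 (4.77 to 5.11) and P2rx3 (3.63 to 4.25) did not overlap in the knockout, those of P2rx6 and P2rx7 did, and those of P2rx7 (1.28 to 2.32) and P2rx5 (-1.80 to 1.65) did too.

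**Figure D1:**
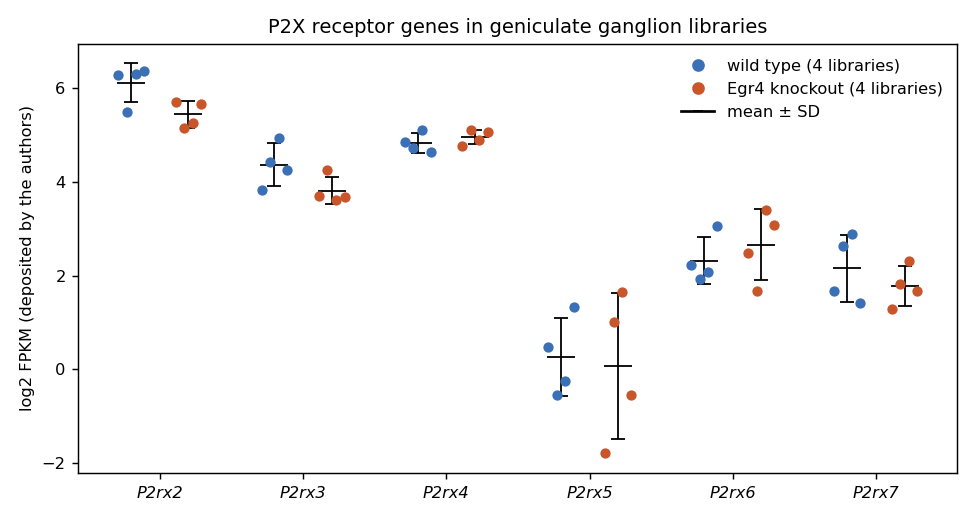
Level of each P2X gene per library (vertical axis, log2 FPKM as deposited), with wild type in blue and Egr4 knockout in orange; points are libraries, bars the mean ± SD of 4. P2rx2 is the highest in both genotypes, P2rx4 varies least and P2rx5 is the lowest, with a knockout range of -1.80 to 1.65.

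As a share of the summed FPKM of the 6 genes, P2rx2 made up 53.1% ± 7.81 with Egr4 and 43.3% ± 7.2 without it, P2rx4 21.9% ± 3.21 and 30.7% ± 3.41, and P2rx3 16.3% ± 4.74 and 14.1% ± 3.63 (SD, n = 4 each). The sum itself averaged 133 ± 22.2 FPKM with Egr4 and 102 ± 5.39 FPKM without it. These shares are tied to each other, so a lower level of one gene raises the share of the rest, and they were not tested. The log2 FPKM of P2rx2 exceeded that of P2rx3 by 2.45, 1.06, 1.35 and 2.11 in wild type libraries 1 to 4 and by 2.02, 0.89, 1.64 and 1.99 in knockout libraries 1 to 4. P2rx2 was thus the higher in every library, and the difference was smallest in library 2 of each genotype, with ranges that overlapped between genotypes.

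None of the 6 genes passed edgeR's quasi-likelihood F-test of knockout against wild type at an adjusted p under 0.05, where 0.00662% of all 15110 genes were called. P2rx2 and P2rx3, the subunits of the taste nerve receptor, had the lowest fitted values, with log2 fold changes of -0.69 and -0.59, and P2rx7 had -0.47. P2rx6, P2rx5 and P2rx4 had 0.40, 0.18 and 0.12. The median over the 6 was -0.17, beside 0.01 over all genes. Wild type and knockout libraries overlapped for all 6 genes, where 2.62% of all genes showed no overlap and 1.41% of all genes lay lower in every knockout library than in any wild type library. At an unadjusted p under 0.05 there were 2 of the 6, both lower in the knockout, where 2.9% of all genes were lower and 1.94% higher at that threshold.

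**Figure D2:**
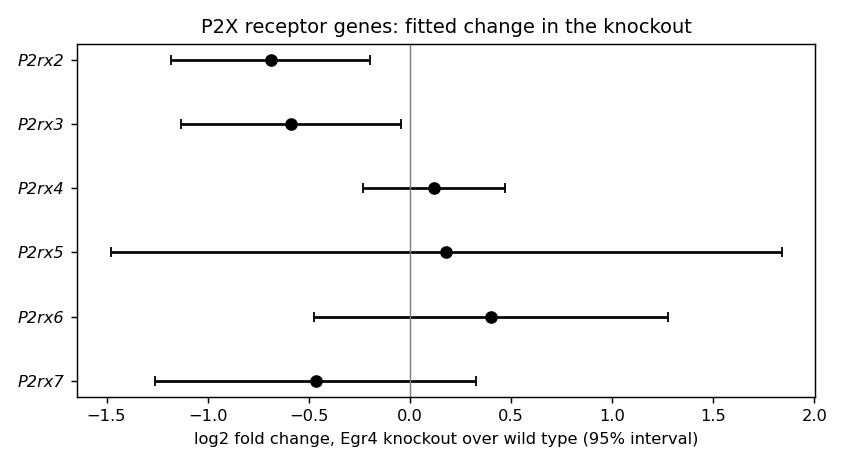
Fitted log2 fold change of each P2X gene, Egr4 knockout over wild type (horizontal axis), with its 95% interval from edgeR's quasi-likelihood fit of 4 against 4 libraries. The intervals of P2rx2 (-1.18 to -0.20) and P2rx3 (-1.13 to -0.04) lie below 0 without adjustment for the number of genes, and the other 4 include 0.

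P2rx2 (chromosome 5, 110339812 to 110343035, minus strand, mm10, 11 merged exons), the subunit that gives the taste nerve receptor its sustained current, was at 150, 86.7, 151 and 160 CPM in wild type libraries 1 to 4. In knockout libraries 1 to 4 it was at 101, 67.9, 73.8 and 97.9 CPM. Wild type libraries 1, 3 and 4 lay above every knockout library, while wild type library 2 lay below knockout libraries 1 and 4, so the groups overlapped. The group means were 137 ± 33.8 and 85.1 ± 16.7 CPM (SD, n = 4 each). The difference was -0.69 ± 0.22 log2 units (SE), with an edgeR adjusted p of 0.924. Leaving out wild type library 2 gave -0.85 ± 0.18 (SE), with an edgeR adjusted p of 1.00. Leaving out knockout library 2 gave -0.60 ± 0.23 (SE). Library 2 was the lowest in P2rx2 in each genotype, and also the lowest in the mean log2 CPM of pan-neuronal genes, at 7.24 in wild type and 6.98 in knockout ganglia, and wild type library 2 was the highest of its group in endothelial genes, at 5.15.

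P2rx3 (chromosome 2, 84996552 to 85035834, minus strand, 12 merged exons), the subunit shared by taste neurons and nociceptors, was at 59.9, 90.7, 129 and 80.6 CPM in wild type libraries 1 to 4. In knockout libraries 1 to 4 it was at 54.4, 80.0, 51.7 and 53.9 CPM. Knockout libraries 1, 3 and 4 lay close together and below every wild type library, and knockout library 2 lay above wild type library 1. The group means were 90.1 ± 29.1 and 60.0 ± 13.4 CPM (SD, n = 4 each). The difference was -0.59 ± 0.24 log2 units (SE), with an edgeR adjusted p of 0.924. Leaving out wild type library 3, the highest, gave -0.36 ± 0.22 (SE), and leaving out knockout library 2 gave -0.76 ± 0.24 (SE). Knockout library 2 was the one with the high endothelial genes, and their part in its P2rx3 level was not tested.

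The mean of pan-neuronal genes differed between libraries more than between genotypes. The 24 pan-neuronal genes averaged 7.56 ± 0.37 log2 CPM in the wild type and 7.62 ± 0.47 in the knockout group (SD, n = 4 each, two-sided exact permutation p = 0.83, where the smallest possible p is 0.0286). Taken relative to that mean, P2rx2 was at -0.14, -0.80, -0.30 and -0.77 log2 units in wild type libraries 1 to 4 and at -0.99, -0.89, -1.52 and -1.50 in knockout libraries 1 to 4. On this scale every knockout library lay below every wild type library, which held for 0.609% of all genes. The margin was narrow, between knockout library 2 at -0.89 and wild type library 2 at -0.80. Knockout libraries 3 and 4, the lowest, were those high in Purkinje cell genes, at a mean log2 CPM of 5.08 and 6.17. The part of such tissue in the pan-neuronal mean was not tested. With the pan-neuronal mean as a covariate over all genes, P2rx2 differed by -0.71 ± 0.18 log2 units (SE, edgeR adjusted p = 0.559) and P2rx3 by -0.59 ± 0.23 (SE, edgeR adjusted p = 0.664). P2rx3 relative to the neuronal mean spanned -1.76 to -0.52 in the wild type and -2.36 to -0.66 in the knockout group, so the groups overlapped.

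**Figure D3:**
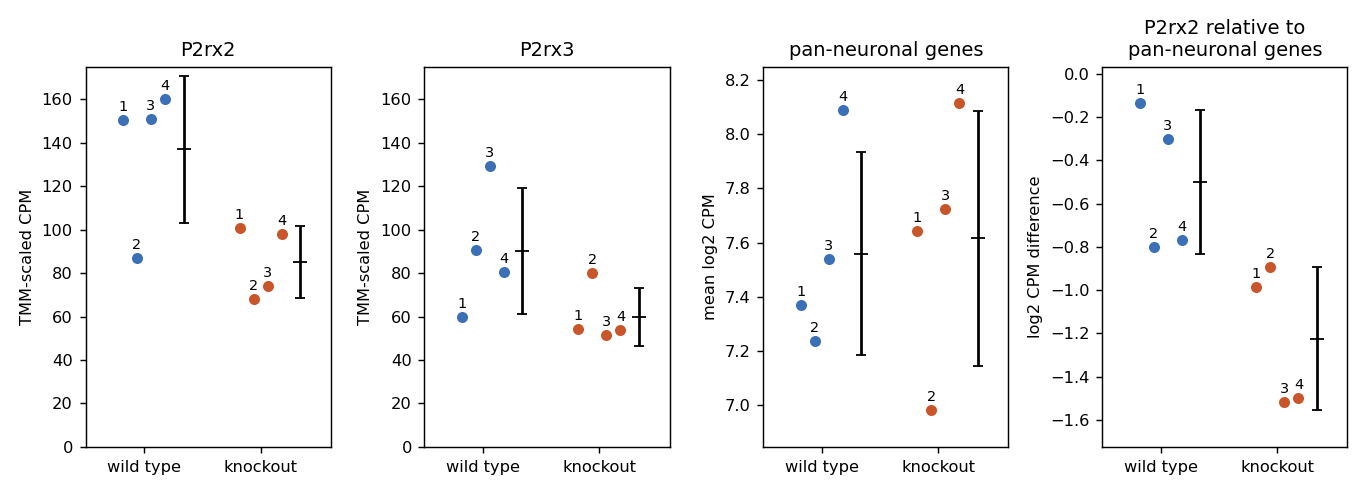
P2rx2 and P2rx3 per library (TMM-scaled CPM), the mean log2 CPM of 24 pan-neuronal genes, and P2rx2 log2 CPM minus that mean; points are libraries with their numbers, bars the mean ± SD of 4. Library 2 of each genotype is low in P2rx2 and in pan-neuronal genes, and relative to those genes the 4 knockout libraries (-1.52 to -0.89) lie below the 4 wild type libraries (-0.80 to -0.14).

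Markers of gustatory neurons other than P2X genes are given beside these values. Of the 13 measured members of that list, 11 had negative log2 fold changes, as had 7362 of all 15110 genes, and the average of the list was 4.46 ± 0.11 log2 CPM with Egr4 and 4.06 ± 0.24 without it (SD, n = 4 each). It ran from 4.34 to 4.58 and from 3.83 to 4.36, so the groups overlapped by a narrow margin (exact permutation p = 0.0571, adjusted over 9 cell type lists 0.360). Other lists also had many negative values, with 11 of 13 macrophage, 10 of 13 satellite glia and 11 of 12 myelinating Schwann cell genes. The pan-neuronal list had 13 of 24 and the somatosensory list 8 of 12. Skeletal muscle, endothelial and Purkinje cell lists had 0. The part of gustatory neuron content in the P2rx2 and P2rx3 values was not tested. The somatosensory list, with 12 of 15 genes measured, had averages of 3.02 ± 0.29 and 2.68 ± 0.36 log2 CPM (SD, n = 4 each, exact permutation p = 0.200, adjusted 0.360).

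**Figure D4:**
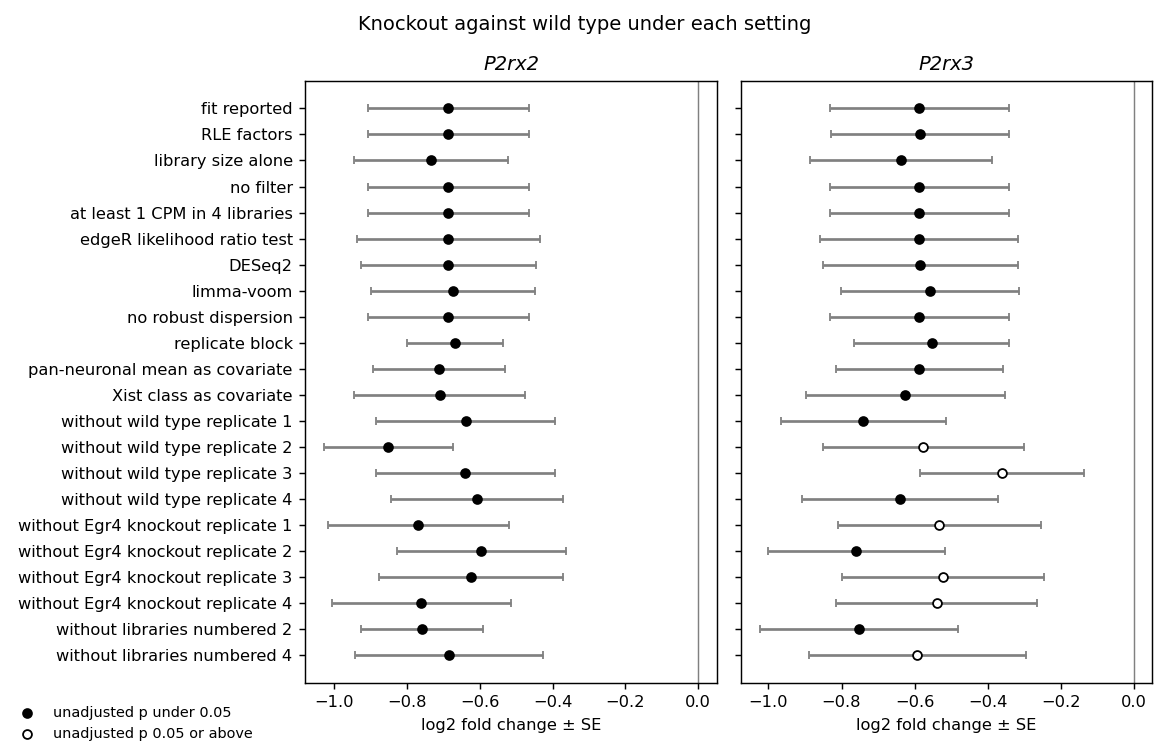
Log2 fold change ± SE of P2rx2 and P2rx3, Egr4 knockout over wild type, in the fit reported and in 21 other settings; filled points have an unadjusted p under 0.05. P2rx2 stays between -0.85 and -0.60, and P2rx3 between -0.76 and -0.36, with the value nearest 0 without wild type library 3.

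P2rx4 (chromosome 5, 122707557 to 122729042, plus strand, 12 merged exons), a subunit of lysosomes and plasma membrane that is prominent in macrophages, varied the least. It was at 57.6, 52.9, 69.3 and 49.8 CPM in wild type libraries 1 to 4 and at 54.5, 68.7, 59.6 and 66.9 CPM in knockout libraries 1 to 4. The knockout range lay within the wild type range, with means of 57.4 ± 8.58 and 62.4 ± 6.59 CPM (SD, n = 4 each). P2rx4 differed by 0.12 log2 units (95% interval -0.23 to 0.47, edgeR adjusted p = 0.928), so the interval leaves out a doubling in either direction. It was 0.05 without wild type library 4, 0.07 without knockout library 2, 0.19 without knockout library 1 and 0.22 without wild type library 3. Within each genotype P2rx4 was highest in the library with the highest mean log2 CPM of macrophage genes, wild type library 3 (6.53) and knockout library 2 (6.47). Macrophage genes were lowest in knockout library 4 (5.14), where P2rx4 was at 66.9 CPM, the second highest of its group. The part of macrophage content in P2rx4 was not tested.

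P2rx7 (chromosome 5, 122643911 to 122691432, plus strand, 16 merged exons), the receptor that opens at high ATP and drives inflammasome activation in myeloid cells, lies 16124 bases before P2rx4. It was at 17.6, 34.1, 40.9 and 14.8 CPM in wild type libraries 1 to 4 and at 13.4, 19.4, 27.4 and 17.4 CPM in knockout libraries 1 to 4. Wild type libraries 2 and 3 lay above every knockout library and wild type library 4 below 3 of them. P2rx7 differed by -0.47 log2 units (95% interval -1.26 to 0.33, edgeR adjusted p = 0.924), and by -0.19 ± 0.36 (SE) without wild type library 3. Library 3 was the highest in P2rx7 in each genotype. The mean log2 CPM of myelinating Schwann cell genes was 9.49, 9.57, 9.73 and 8.70 in wild type libraries 1 to 4 and 8.64, 9.23, 9.39 and 8.30 in knockout libraries 1 to 4. It too was highest in library 3 of each genotype, but wild type library 1 lay above knockout library 3 in these genes and below it in P2rx7. Macrophage genes were at 6.04, 6.10, 6.53 and 6.01 in wild type libraries 1 to 4 and at 6.12, 6.47, 5.89 and 5.14 in knockout libraries 1 to 4, highest in wild type library 3 and in knockout library 2. Satellite glia genes were highest in library 2 of each genotype, at 7.79 in wild type and 7.49 in knockout ganglia. The part of any of these cell types in P2rx7 was not tested. P2rx7 shares 119 exon bases with Mir8115 on the same strand, and the other 5 genes share no exon bases with another gene in the GENCODE annotation of this build.

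P2rx6 (chromosome 16, 17561885 to 17572012, plus strand, 12 merged exons), the subunit that mostly joins P2X2 and P2X4 and is also known from skeletal muscle and Purkinje cells, was at 10.9, 8.89, 9.81 and 19.6 CPM in wild type libraries 1 to 4. In knockout libraries 1 to 4 it was at 13.1, 7.47, 24.6 and 19.9 CPM. The highest levels came from library 4 of the wild type and libraries 3 and 4 of the knockout, which also had the 3 highest pan-neuronal means, at 8.09, 7.72 and 8.11. P2rx6 differed by 0.40 log2 units (95% interval -0.48 to 1.28, edgeR adjusted p = 0.924). It was 0.13 without knockout library 3, 0.64 without knockout library 2 and 0.71 without wild type library 4. Knockout libraries 3 and 4 were those high in Purkinje cell genes, at 5.08 and 6.17, but wild type library 4 had 2.88. Skeletal muscle genes were at a mean log2 CPM of 1.08 and 6.68 in knockout libraries 3 and 4. In wild type library 4 they were at -0.01. The part of either tissue in P2rx6 was not tested. Relative to the pan-neuronal mean, P2rx6 averaged -4.00 ± 0.20 log2 units with Egr4 and -3.72 ± 0.43 without it (SD, n = 4 each).

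P2rx5 (chromosome 11, 73160530 to 73172687, plus strand, 13 merged exons) was the rarest and most variable of the 6, with 49 to 257 counts per wild type and 29 to 388 per knockout library. It was at 3.13, 1.52, 1.89 and 5.69 CPM in wild type libraries 1 to 4 and at 0.614, 4.59, 7.15 and 1.51 CPM in knockout libraries 1 to 4. The knockout range enclosed the wild type range. P2rx5 differed by 0.18 log2 units (95% interval -1.48 to 1.84, edgeR adjusted p = 0.973), and its sign turned in 5 of 21 other settings, such as -0.45 without knockout library 3. Its interval leaves room for a change of more than 2-fold in either direction.

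Genes with levels most like those of each P2X gene across the 8 libraries were listed. For each P2X gene, the genes most alike were taken as those with the highest Pearson r of log2 CPM over the 8 libraries among 11431 genes with a mean of at least 5 CPM. The P2X genes themselves and predicted genes were left out of these candidates. With so many candidates and 8 libraries, such values describe these samples only. P2rx2 was most like Calca (r = 0.983, Spearman's rho = 0.976), which encodes the neuropeptide CGRP, followed by Taf4b (0.961), Metap1 (0.946), Uck2 (0.939) and Tlx2 (0.925). P2rx3 was most like Vps33a (r = 0.976), Dpysl5 (0.962), Ttc13 (0.958), Depdc5 (0.955) and Plxna1 (0.948). P2rx4 was most like Pvrl2 (r = 0.937), P2rx5 most like Tmem117 (0.943), P2rx6 most like Ubxn2a (0.986) and P2rx7 most like Mex3c (0.989). None of the first 5 genes of one P2X gene was among those of another, P2rx2 and P2rx3 included. With 5 genes taken from 11431, this does not show whether the P2X genes differ in pattern, and correlations between them were not computed.

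Other genes that handle extracellular ATP and its products were taken from 4 lists. Of their 27 measured members 0 were called, where 0.00662% of all 15110 genes were called. The metabotropic P2Y receptors, G protein-coupled receptors for nucleotides, had 6 of 7 genes measured, and all 6 had negative log2 fold changes, with a median of -0.41 beside 0.01 over all genes, of which 7362 of 15110 were negative. P2ry1, a receptor for ADP, was the most abundant in CPM, at 132 ± 34.6 with Egr4 and 94.3 ± 15.1 without it (SD, n = 4 each), a difference of -0.48 ± 0.21 log2 units (SE, edgeR adjusted p = 0.924). It was the only P2Y gene with an unadjusted p under 0.05, where 2.9% of all genes were lower at that threshold. P2ry2, a receptor for ATP and UTP, stood at 46.5 ± 17 and 31.5 ± 13.2 CPM. The ranges of both overlapped between genotypes. Of the adenosine receptors, 3 of 4 were measured and had negative log2 fold changes, with Adora1, the inhibitory receptor of nerve terminals, at 103 ± 17.8 and 78.7 ± 18.6 CPM and Adora2a at 28.7 ± 16.4 and 26 ± 4.00 CPM.

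Enzymes that break down extracellular nucleotides or clear adenosine were measured for 11 of 12 genes, of which 6 had negative and 5 positive log2 fold changes, with a median of -0.21. Enpp2, which encodes autotaxin, best known for making lysophosphatidic acid, was the most abundant in CPM, at 454 ± 183 with Egr4 and 369 ± 298 without it, followed by Entpd3, an ectonucleotidase of sensory neurons, at 164 ± 36.4 and 142 ± 39.8 CPM (SD, n = 4 each). At an unadjusted p under 0.05 there were 2 of the 11, both lower, Acpp and Entpd2, where 2.9% of all genes were lower and 1.94% higher. Acpp, the transmembrane acid phosphatase that makes adenosine from AMP in sensory neurons, averaged 31.5 ± 3.94 and 20.4 ± 4.76 CPM, a difference of -0.63 ± 0.21 log2 units (SE). Entpd2, the ectonucleotidase known from glia-like taste cells and from satellite glia and Schwann cells, averaged 40.3 ± 9.92 and 28.8 ± 2.73 CPM, a difference of -0.48 ± 0.21 log2 units (SE). Both had an edgeR adjusted p of 0.924. Satellite glia genes averaged 7.54 ± 0.26 log2 CPM with Egr4 and 7.30 ± 0.15 without it (SD, n = 4 each, exact permutation p = 0.171, adjusted 0.360). Myelinating Schwann cell genes averaged 9.37 ± 0.46 and 8.89 ± 0.51 log2 CPM, with 11 of 12 genes negative (SD, n = 4 each, exact permutation p = 0.171, adjusted 0.360). The part of either cell type in Entpd2 was not tested.

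ATP release and vesicular loading genes were measured for 7 of 10. Their log2 fold changes had a median of 0.04, with 5 positive and 2 negative values. Of these 7 genes 0 had an unadjusted p under 0.05, where 4.84% of all genes did. Gja1, the connexin of satellite glia and other support cells, averaged 191 ± 70.8 CPM with Egr4 and 194 ± 74.2 CPM without it, and the pannexin channel gene Panx1 at 53.1 ± 13 and 48.5 ± 11.7 CPM (SD, n = 4 each). Calhm1 and Calhm3, the ATP channel of taste cells, were not analysed here, nor was Slc17a9, the vesicular nucleotide transporter.

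**Figure D5:**
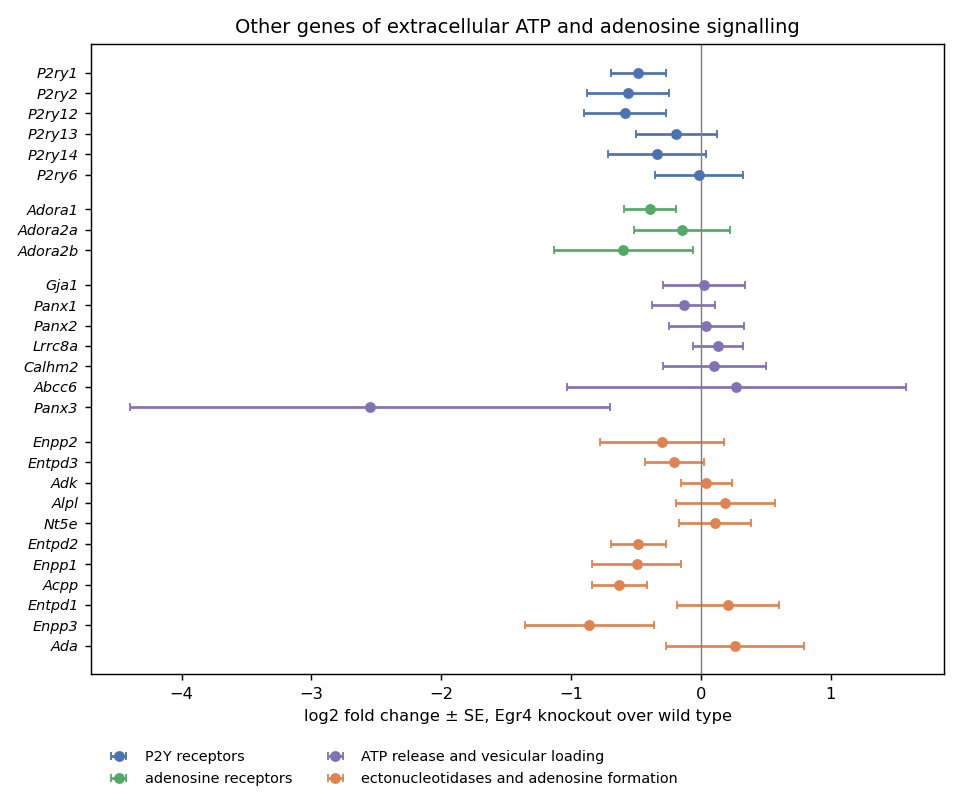
Log2 fold change ± SE, Egr4 knockout over wild type, of the 27 measured genes of 4 lists (colours), ordered within a list by mean CPM. All 6 P2Y and all 3 adenosine receptor genes lie below 0, the enzymes and ATP release genes lie on both sides, and Panx3 (-2.55 ± 1.85) has few counts.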

How the data were processed

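RNA-seq of whole geniculate ganglia was compared between 4 wild type and 4 Egr4 knockout libraries. Per the submitters' processing notes, the reads were handled with STAR 2.5, FastQC 0.11.5, edgeR 3.12.1 and the featureCounts program from Subread 1.5.1, on build mm10. The authors deposited raw counts per gene and log2 FPKM values derived from them, and these match log2 FPKM recomputed from counts and lengths within 0.00857 for all members but P2rx5 (0.101). The deposited p-value, false discovery rate and log2 fold change of the authors' comparison, and its signed fold change (read as a score), were not used in the report, and the closing section quotes 2 false discovery rates. PCR copies were not removed by molecular identifier, as far as the labels say, and strand is not stated.

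All genes were tested on counts with edgeR 4.0.16 in R 4.3.3 (filterByExpr, TMM, robust glmQLFit, glmQLFTest, two-sided, genotype only), adjusted by Benjamini-Hochberg over 15110 genes, with a threshold of 0.05. Each standard error is the fold change in log2 over the root of F, and intervals cover 95%. log2 CPM used a prior count of 2. Cell type lists were compared by an exact permutation test of 70 arrangements. The tests were tried on simulated data. DESeq2 1.42.0 and limma-voom 3.58.1 were alternatives. The sample titles number 1 adult per library, without stating how many mice each library holds. The lowest chi-square between replicates was 124 per degree of freedom, far above sampling noise. That value does not tell single mice from pools of mice.

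Members and lists were chosen with earlier results of these data known. Named are the members, Egr4, per pathway list the 2 genes of highest mean CPM and up to 4 with an unadjusted p under 0.05, and 5 like genes per member. Panx3 and P2rx1 were added after their values were seen. Calhm1, Calhm3, Slc17a9 and Mir8115 were also added to those named, but they were not among the genes measured and had no values to be seen. One item is not reported here.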

Additional observations from a re-analysis of the deposited data

Results flagged for a closer look

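Among 34 sets of 4 libraries, 4 had a single library far from the rest, and chance alone would give about 1.7. The number in brackets is that library's distance to its nearest neighbour over the full range of the set. Wild type library 2 was lowest in P2rx2 (0.868), at 86.7 CPM against 150 to 160 CPM in the others. Knockout library 2 was highest in P2rx3 (0.906), at 80.0 CPM against 51.7 to 54.4 CPM. Wild type library 2 was highest in the mean log2 CPM of endothelial genes (0.848), at 5.15 against 4.61 to 4.69. Knockout library 4 was highest in the mean log2 CPM of skeletal muscle genes (0.834), at 6.68 against 0.62 to 1.63.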

How the results depend on the processing

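No P2X gene was called in any of 21 alternative settings, with adjusted p-values from 0.367 to 1.00 for P2rx2 and from 0.510 to 1.00 for P2rx3. P2rx2 had an unadjusted p under 0.05 in all 21 and P2rx3 in 15. These settings refit the same 8 libraries or part of them, so such tallies do not count independent tests. The setting with no filter gave the same fit, as the filter removed 0 genes. In the fit reported, 4.84% of all genes had an unadjusted p under 0.05. Without wild type library 3, such genes were 257 lower and 154 higher. P2rx2, P2rx3 and P2rx7 stayed negative and P2rx4 and P2rx6 positive in all 21. Leaving out 1 library moved the log2 fold change of P2rx2 from -0.85 to -0.60, of P2rx3 from -0.76 to -0.36, of P2rx5 from -0.45 to 0.66, and the pan-neuronal difference from -0.11 to 0.27. P2rx5 was also -0.20 with limma-voom and -0.21 without both libraries numbered 2. The number of genes called over the table was 1. It was 0 with RLE factors, with library size alone, with Xist class as a covariate, without both libraries numbered 2 and without both numbered 4, was 0 to 1 without 1 library, 10 with the likelihood ratio test and 14 with DESeq2. The cause was not tested.

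The replicate numbers were not treated as pairs. Same-numbered libraries correlated at 0.06, 0.15, 0.00 and 0.06 in their deviations from the group means. Wild type libraries 1 and 2 correlated best with the knockout library of their own number, and wild type libraries 3 and 4 did not. With the replicate block, 2 genes were called and P2rx5 had a log2 fold change of -0.18. P2rx2 had -0.67 ± 0.13 (SE, edgeR adjusted p = 0.367), where the SE without the block was 0.22. Genes at an unadjusted p under 0.05 were 787 lower and 665 higher with the block, beside 438 and 293 without it. Whether same-numbered libraries share a source of variation was not tested further. In the authors' deposited table the false discovery rate was 0.618 for P2rx2 and 0.935 for P2rx3. P2rx5, with 29 to 388 counts per library, had the widest interval of the 6 genes.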

Other observations

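P2rx1, the P2X subunit of platelets and smooth muscle, was outside the rule for the genes described and was looked at after its values were seen. It had 31, 13, 0 and 125 counts in wild type libraries 1 to 4 and 1, 111, 50 and 77 in knockout libraries 1 to 4, so it was at most 2.77 CPM, and the groups overlapped.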
